A study of Danio rerio with 18 samples.

Results

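The comparison set zebrafish (Danio rerio) embryos at sphere stage against embryos of 2 earlier stages, together called cleavage here. The question was what the tRNA pool showed across the major wave of zygotic transcription. It used 6 of the 18 libraries of the series, which were 2 from sphere (4 hours post-fertilization, hpf), 2 from the 256-cell stage (2.5 hpf) and 2 from the 1000-cell stage (3 hpf). The libraries were chosen by their stage labels, and egg libraries were left out. The study counts all of these stages as blastula. It places the bulk of zygotic messenger RNA expression around 3 hpf, the time of the 1000-cell libraries, so not all cleavage libraries precede that wave. All were wild type (WT) embryos of the TLAB strain, raised without treatment in embryo medium, with 50 whole embryos pooled per library. By the study's methods the replicates of a stage came from different days, and whether stages shared a day is not stated in the sources used here. tRNA was sequenced by mim-tRNAseq, in which a reverse transcriptase copies past chemically modified bases, so that full-length reads can be placed on individual tRNA transcripts. The other 12 libraries of the series came from egg, shield and bud (6) or measured charging (6), and they entered only where named.

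A newly fertilized zebrafish embryo depends on RNA and protein that the mother placed in the egg. Its own genome is largely silent during the fast cleavage divisions and is switched on in a broad wave at the mid-blastula transition, which for messenger RNA is well under way by sphere stage. tRNA genes are transcribed by RNA polymerase III rather than by polymerase II. tRNA molecules are long-lived, so that the pool at sphere can hold molecules from the mother together with any newly made ones. Transcripts that share an anticodon but differ elsewhere in sequence are called isodecoders, and together they form an anticodon family. Mitochondria carry a separate set of tRNA genes, which a polymerase of their own transcribes from both DNA strands.

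Total counts of uniquely mapped reads were 3061903 and 2216434 in the sphere libraries, 10121680 and 2578941 at the 256-cell stage, and 1792461 and 2877750 at the 1000-cell stage. The count table held 2600 entries, of which 2505 were single nuclear transcripts, 73 were nuclear groups of transcripts that could not be told apart, and 22 were mitochondrial tRNAs. Detection required a share of at least 0.005% of nuclear counts in 1 or more of the 6 libraries. This left 621 entries, which were 546 single transcripts, 53 groups and all 22 mitochondrial tRNAs. The other 1979 entries summed to a share of 1.07% to 1.26% in each library. Levels of single entries are given as reads per 1000000 nuclear counts (rpm). Levels of families are given as percent of nuclear counts or, for mitochondrial tRNAs, as percent of mitochondrial counts. These are all shares of a sequenced pool, so the amount of tRNA per embryo was not measured, and in whole embryos a change in cell number and a change in RNA per cell cannot be told apart.

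No tRNA was seen at sphere alone beyond a few reads. In 30 entries reads were present at sphere and absent from all 4 cleavage libraries, but no such entry had more than 2 reads over both sphere libraries. The opposite pattern was seen in 154 entries, none with more than 17 reads over the 4 cleavage libraries, which together held 17370832 counts against 5278337 at sphere. A further 218 entries had no read in any of the 6 libraries. A count of 0 allows up to 3 reads, which is between 0.352 and 2.01 rpm in these libraries, and this limit covers counting error only.

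The pools at sphere and cleavage were close to each other. Over the 546 detected single transcripts, the mean level at sphere and the mean level at cleavage had a Pearson correlation of 0.98 on a log10 scale. Over the 47 nuclear families the correlation of mean shares was 0.99. Both describe agreement across tRNAs, which are not independent replicates and share the same libraries. To turn the mean cleavage pool into the mean sphere pool, 5.11% of nuclear counts had to be placed in another family. In the scatter of sphere against cleavage levels most entries lay along the diagonal over the whole range.

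**Figure D1:**
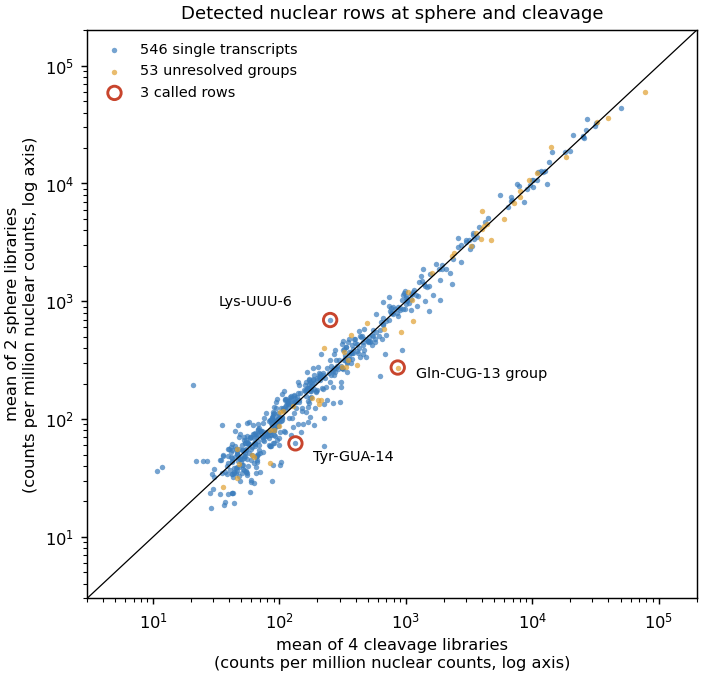
Mean level of each detected nuclear entry in the 2 sphere libraries (vertical) against the mean of the 4 cleavage libraries (horizontal), both in rpm on log axes, with 546 single transcripts in blue, 53 groups in orange and the diagonal marking equal levels. The 3 called entries are circled, Lys-UUU-6 above the diagonal and Gln-CUG-13 group and Tyr-GUA-14 below it.

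The spread between libraries of 1 cleavage stage was as large as the distance between sphere and cleavage. Pairs made of a sphere and a cleavage library differed in the family of between 4.49% and 8.29% of their nuclear counts, with a median of 6.48% over 8 pairs. The 2 sphere libraries differed in 4.42%, the 2 libraries of the 256-cell stage in 7.67% and the 2 of the 1000-cell stage in 6.92%. Among the cleavage libraries the most alike were 256-cell replicate 1 and 1000-cell replicate 2 (3.42%), followed by 256-cell replicate 2 and 1000-cell replicate 1 (4.68%). The cleavage libraries thus stood apart by a property that crossed the 2 stages, and the labels name no batch that would describe it.

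**Figure D2:**
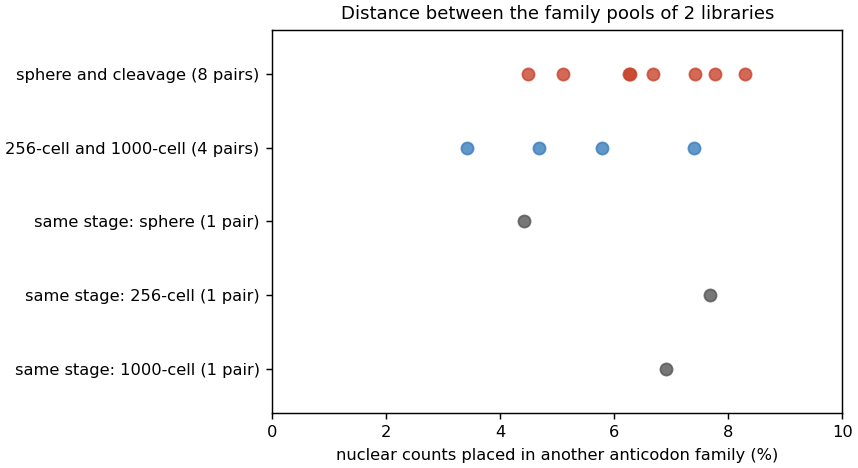
Percent of nuclear counts that fell in another anticodon family between 2 libraries, with 1 point per pair of libraries and pairs grouped by stage. The 8 pairs of a sphere and a cleavage library ran from 4.49% to 8.29%, the 4 pairs of a 256-cell and a 1000-cell library from 3.42% to 7.41%, and the 3 pairs within a stage lay at 4.42%, 7.67% and 6.92%.

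At the level of single entries, 3 of the 621 detected entries passed the test for sphere against cleavage (0.483%). All 2382 entries with a count were fitted, and p was adjusted over all of them. The test was the DESeq2 Wald test with the 3 stages as groups, the contrast of sphere with the mean of both cleavage stages, and a Benjamini-Hochberg adjusted p of at most 0.05. Lys-UUU-6 was higher (1 higher, 0.161%), and Gln-CUG-13 group and Tyr-GUA-14 were lower (2 lower, 0.322%). Together these 3 entries held between 0.0952% and 0.111% of nuclear counts at sphere and between 0.0996% and 0.152% at cleavage. At an unadjusted p under 0.05 there were 41 entries (6.6%), of which 21 were higher and 20 lower. With edgeR's quasi-likelihood test 0 of 621 passed, and 41 had an unadjusted p under 0.05.

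Lys-UUU-6 is a lysine isodecoder whose anticodon pairs with the codons AAA and AAG, and the authors' table gives it 128 gene copies. It had 815 and 571 rpm at sphere, against 262 and 317 at the 256-cell stage and 226 and 203 at the 1000-cell stage. Both sphere libraries thus lay above all 4 cleavage libraries. The log2 difference was 1.497 (SE 0.28, a 2.82-fold higher fitted level), with an adjusted p of 0.000186 by DESeq2. Lys-UUU-6 was also the single entry called for sphere against the 1000-cell stage alone (log2 1.75, SE 0.32, adjusted p 0.000148). That call was lost without either 1000-cell library and without sphere replicate 1. Against the 256-cell stage alone its log2 difference was 1.24 (SE 0.32, adjusted p 0.13 by DESeq2).

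The level of Lys-UUU-6 at the other stages of the series was 206 and 332 rpm in egg, 2502 and 1426 at shield, and 2151 and 1105 at bud. The cleavage libraries were therefore within the range of the eggs, apart from 1 library just below it, and the sphere libraries lay between the eggs and the shield and bud libraries. The call was lost with edgeR (adjusted p 0.299) and without sphere replicate 1 (log2 1.18, adjusted p 0.999 by DESeq2), the library with the higher level. It held under 14 of 16 alternatives, and the difference was positive in all 16. Counts of alternatives, here and for the other called tRNAs, include the fits with a pair of cleavage libraries left out. Those fits were chosen after seeing the data and are described below. Lys-UUU-6, Gln-CUG-13 group and the Arg-UCU family passed in both of them.

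2 other isodecoders of the same family showed a like order of libraries without passing the test. Lys-UUU-9, with 18 gene copies, had 50.4 and 27.6 rpm at sphere, against 12.1 and 13.3 at the 256-cell stage and 12.8 and 9.25 at the 1000-cell stage. Its log2 difference was 1.76 (SE 0.45) with an adjusted p of 0.0532 by DESeq2. With both cleavage stages fitted as 1 group, Lys-UUU-9 was called. Lys-UUU-52 had 82.8 and 76.3 at sphere, against 42.3 and 46.5 and then 53.7 and 35.8 at the same cleavage stages (log2 0.87, SE 0.30, adjusted p 0.648 by DESeq2). Both had their sphere libraries above all 4 cleavage libraries, which the rule that named them required. Of the 13 detected single transcripts of the family, 9 had a positive log2 difference and 4 a negative one. In 4 of the 13 both sphere libraries lay above all cleavage libraries, beside 69 of all 546 detected single transcripts.

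The Lys-UUU family as a whole did not follow them. It took 5.75% and 6.93% of nuclear counts at sphere, against 9.85% and 7.05% at the 256-cell stage and 6.45% and 9.08% at the 1000-cell stage. Its log2 difference was -0.38 (SE 0.21, adjusted p 0.709 by DESeq2), and the groups did not separate beyond the spread of the cleavage libraries. Of its counts, 93.7% and 95.8% at sphere and between 96.1% and 97.3% at cleavage fell in Lys-UUU-155 group, 9 transcripts that could not be resolved. That group had 53943 and 66376 rpm at sphere, against 95845 and 68390 at the 256-cell stage and 62041 and 88386 at the 1000-cell stage. It was high in the same 2 cleavage libraries, 256-cell replicate 1 and 1000-cell replicate 2, that resembled each other over the whole pool. When the family was summed from single transcripts only, leaving this group out, its log2 difference was 0.45 (adjusted p 0.276 by DESeq2). By the study's methods, a synthetic E. coli tRNA with the same anticodon was added to the RNA of the abundance libraries. Whether its reads entered these counts was not tested.

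Gln-CUG-13 group holds 3 glutamine transcripts that read the codon CAG, with 5 gene copies between them. It had 236 and 312 rpm at sphere, against 617 and 1070 at the 256-cell stage and 1090 and 675 at the 1000-cell stage. Both sphere libraries lay below all cleavage libraries, and the 4 cleavage libraries fell in a lower and a higher pair across the stages. The log2 difference was -1.64 (SE 0.35, adjusted p 0.00349 by DESeq2), a fitted level of 0.321 times that at cleavage. In egg the group stood at 531 and 427 rpm. The call was lost with edgeR (adjusted p 0.299), without sphere replicate 1 (adjusted p 0.999) and without sphere replicate 2 (adjusted p 0.208, both by DESeq2), and it held under 12 of 15 alternatives.

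The Gln-CUG family showed no difference of this kind, with 3.51% and 3.29% of nuclear counts at sphere, 3.16% and 3.87% at the 256-cell stage, and 3.33% and 3.30% at the 1000-cell stage. Its log2 difference was -0.03 (SE 0.12), with a 95% interval from -0.26 to 0.20. Gln-CUG-13 group was a small part of the family's counts.

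Tyr-GUA-14, a tyrosine isodecoder with 1 gene copy, had 55.1 and 69.3 rpm at sphere, against 117 and 136 at the 256-cell stage and 149 and 133 at the 1000-cell stage. The log2 difference was -1.09 (SE 0.26, adjusted p 0.0245 by DESeq2), about the same against either stage (-1.05 and -1.13, SE 0.30 each). Its sphere level was close to that of eggs, which had 55.6 and 63.2. The transcript was among those called higher at shield than in egg, so low levels at sphere and in egg did not extend to shield. The call held under 5 of 16 alternatives, and the difference was negative in all of them. It was lost when each of the 6 libraries in turn was left out, with adjusted p between 0.132 and 0.999 by DESeq2, and with edgeR (0.299).

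**Figure D3:**
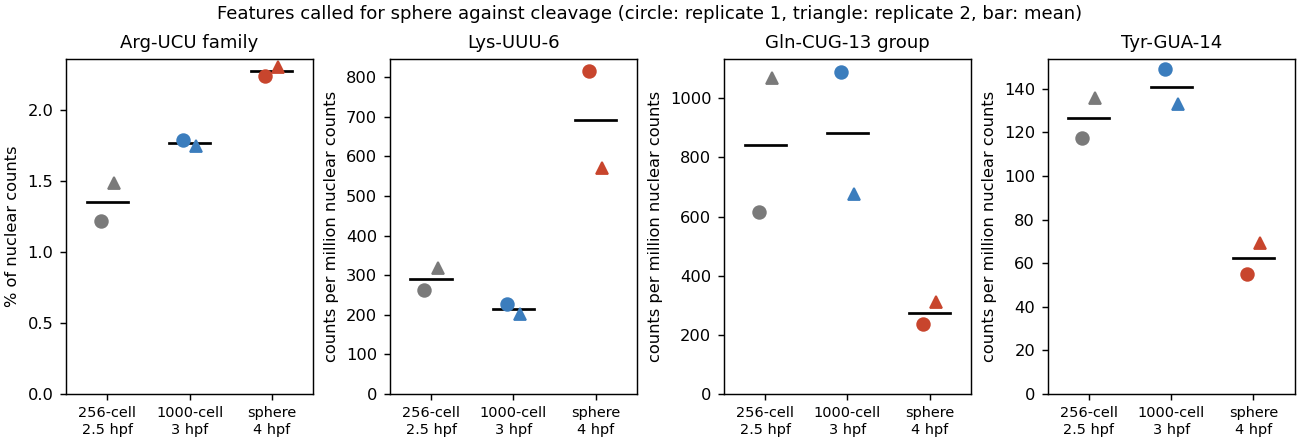
Level in each library of the 1 family and 3 entries called for sphere against cleavage, by stage (256-cell at 2.5 hpf, 1000-cell at 3 hpf, sphere at 4 hpf), in percent of nuclear counts for the family and rpm for the entries, with circles for replicate 1, triangles for replicate 2 and a bar at the mean. In each panel both sphere libraries lie on 1 side of all 4 cleavage libraries, above them for Arg-UCU and Lys-UUU-6 and below them for Gln-CUG-13 group and Tyr-GUA-14.

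Both sphere libraries lay above all 4 cleavage libraries in 72 of the 621 entries (11.6%) and below them in 46 (7.41%), which is 118 in either direction (19.0%). The 2 libraries of the 1000-cell stage lay on 1 side of the 2 of the 256-cell stage in 95 entries (15.3%). By arrangement alone, 2 libraries separate from 2 others more often than from 4. The 2 shares therefore have unlike baselines and cannot be set against each other. Among the single transcripts with such separate groups, those with the smallest p that were not called are given here as values. Leu-CAA-70, a leucine isodecoder that reads UUG, had 68.8 and 109 rpm at sphere, against 36.7 and 22.3 at the 256-cell stage and 36.2 and 46.3 at the 1000-cell stage (log2 1.34, SE 0.38, adjusted p 0.187 by DESeq2). Lys-CUU-33, which reads AAG, had 83.6 and 93.1 at sphere and between 42.2 and 55.04 at cleavage (log2 0.93, SE 0.30). Pro-AGG-9, a proline isodecoder, had 166 and 177 at sphere and between 102 and 121 at cleavage (log2 0.68, SE 0.24).

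On the lower side, Gly-UCC-4, a glycine isodecoder, had 295 and 424 rpm at sphere and between 591 and 797 at cleavage (log2 -0.92, SE 0.29). Glu-CUC-21, a glutamate isodecoder and the most abundant of this set, had 1207 and 1584 at sphere and between 2016 and 2768 at cleavage (log2 -0.73, SE 0.24). Cys-GCA-7 had a log2 difference of -1.22 (SE 0.42), Ser-AGA-156 of -0.84 (SE 0.32) and Arg-UCG-4 of -0.75 (SE 0.29). The adjusted p by DESeq2 of these 5 transcripts lay between 0.502 and 0.888. The last 3 were rare, with at most 196 rpm in any of the 6 libraries. Glu-CUC-21 was called lower when undetected entries were removed before the fit.

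Lys-UUU-20 had the highest log2 difference of all detected entries at 3.30 (SE 1.67), with overlapping groups, and was chosen for mention after its values were seen. It had 388 and 4.33 rpm at sphere, against 34.4 and 8.54 at the 256-cell stage and 32.2 and 7.99 at the 1000-cell stage. The difference therefore rested on sphere replicate 1, and the first replicate was the higher of the pair at each stage.

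None of the 6 most abundant single transcripts was called for sphere against cleavage. Tyr-GUA-2, at the head of the list with 135 gene copies, had 43762 and 43848 rpm at sphere, against 54541 and 46081 at the 256-cell stage and 48165 and 53008 at the 1000-cell stage (log2 -0.19, SE 0.21). Ala-AGC-3 had a single gene copy in the authors' table. It stood at 34807 and 30566 at sphere, and between 31127 and 33416 at cleavage (log2 0.04, SE 0.21). Gly-UCC-2 (log2 -0.03), Ala-CGC-1 (0.12) and Pro-AGG-83 (0.01) had SE between 0.19 and 0.21. Asp-GUC-2, an aspartate isodecoder that reads GAC and GAU, had 37058 and 34091 at sphere, against 25668 and 27032 at the 256-cell stage and 31235 and 25140 at the 1000-cell stage (log2 0.40, SE 0.20, adjusted p 0.999 by DESeq2). Of these 6 transcripts, Asp-GUC-2 alone had both sphere libraries above all cleavage libraries, and Tyr-GUA-2 alone had both below.

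Of the transcripts that the study or earlier results had singled out, Tyr-GUA-14 was called as described above, and the others were not. Ser-UGA-19, a serine isodecoder, had 790 and 800 rpm at sphere, against 1016 and 950 at the 256-cell stage and 773 and 682 at the 1000-cell stage, and 4394 and 3414 at bud. Its log2 difference from cleavage was -0.07, with a 95% interval from -0.45 to 0.30. Thr-UGU-8, which reads ACA, had 2149 and 1891 at sphere, against 1969 and 2252 and then 1791 and 1695 at the cleavage stages, and 6985 and 6623 at bud. Its interval for sphere against cleavage ran from -0.33 to 0.52 around a log2 difference of 0.09. For both transcripts the 2 sphere libraries lay within the range of the cleavage libraries, below the level at bud. Thr-UGU-7 had a log2 difference of 0.18 (SE 0.36).

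Of the other transcripts on that list, Leu-AAG-15 had 209 and 200 rpm at sphere and between 102 and 157 at cleavage (log2 0.56, SE 0.28, adjusted p 0.999 by DESeq2). Glu-CUC-3 had 215 and 212 at sphere and between 140 and 185 at cleavage (log2 0.33, SE 0.24). Both had separate groups. The log2 differences of Arg-UCU-24 (0.32, SE 0.49), Val-AAC-7 (-0.24, SE 0.33), His-GUG-35 (0.47, SE 0.61), Tyr-GUA-5 (-0.47, SE 0.45) and Val-UAC-24 (-0.18, SE 0.54) were smaller than their errors or close to them. Arg-CCU-1 was below the detection threshold in all 6 libraries, with 30.9 and 30.3 rpm at sphere and between 25.7 and 43.2 at cleavage.

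At the level of anticodon families, 1 of 69 passed the test for sphere against cleavage (1.45%). This was Arg-UCU, which reads the arginine codons AGA and AGG, and it was higher at sphere. It took 2.24% and 2.30% of nuclear counts at sphere, against 1.22% and 1.48% at the 256-cell stage and 1.79% and 1.75% at the 1000-cell stage. Both sphere libraries lay above all cleavage libraries, and the 1000-cell libraries above those of the 256-cell stage. The log2 difference was 0.54 (SE 0.12, a 1.45-fold higher fitted level), with an adjusted p of 0.000337 by DESeq2 and 0.0454 by edgeR. In egg the family stood at 1.82% and 1.91%, which was above all 4 cleavage libraries and below sphere. It was also below the sphere level at shield (1.83% and 1.80%) and bud (1.58% and 1.40%).

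Arg-UCU was also the 1 family called for sphere against the 256-cell stage alone (1.45% of 69), with a log2 difference of 0.72 (SE 0.14, adjusted p 6.73e-06). Against the 1000-cell stage its log2 difference was 0.35 (SE 0.14, adjusted p 0.674 by DESeq2). Between the 2 cleavage stages it was 0.37 higher at the 1000-cell stage on the log2 scale (SE 0.14, adjusted p 0.416). The call for sphere against cleavage held under 15 of 16 alternatives.

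Most Arg-UCU counts fell in Arg-UCU-10 group, 11 unresolved transcripts with 97 gene copies, which held between 89.3% and 90.5% of the family in each of the 6 libraries. The group had 20264 and 20619 rpm at sphere, against 10985 and 13235 at the 256-cell stage and 16089 and 15577 at the 1000-cell stage (log2 0.57, SE 0.21). It did not pass the test among single entries (adjusted p 0.776 by DESeq2). When undetected entries were removed before the fit, the group was called. Of the 9 detected single transcripts of the family the log2 difference was positive in 8 cases, and 5 of them had both sphere libraries above all cleavage libraries. Over all 546 detected single transcripts these counts were 289 and 69. The 9 transcripts come from the same 6 libraries as the family value and do not replicate it. Arg-UCU-12 had 877 and 1110 at sphere and between 411 and 868 at cleavage. Arg-UCU-8 had 275 and 272 at sphere and between 133 and 224 at cleavage. Neither was called, and with the groups left out the family's log2 difference was 0.49 (adjusted p 0.189 by DESeq2).

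Both sphere libraries lay above all 4 cleavage libraries in 11 of 69 families (15.9%), 8 of them nuclear and 3 mitochondrial, and below them in 4 (5.8%), all nuclear, together 15 (21.7%). At an unadjusted p under 0.05 there were 5 families (7.25%), 4 higher and 1 lower. The 1000-cell libraries lay on 1 side of the 256-cell libraries in 8 families (11.6%). That share again has another baseline than the separation of 2 libraries from 4. Asp-GUC had 4.03% and 3.78% at sphere, against 2.90% and 3.10% at the 256-cell stage and 3.55% and 2.84% at the 1000-cell stage (log2 0.32, SE 0.13). Leu-AAG, whose first anticodon base is read as inosine, had 1.504% and 1.69% at sphere and between 0.898% and 1.35% at cleavage (log2 0.45, SE 0.19). Leu-CAA (log2 0.47, SE 0.24) and Leu-CAG (0.31, SE 0.20) also had higher means at sphere, with overlapping groups. The adjusted p of these 4 families by DESeq2 lay between 0.354 and 0.709.

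The families with lower means and the smallest p were Val-UAC, Lys-UUU, Tyr-GUA, Gly-GCC and mt-Leu-UAA. Val-UAC, which reads the valine codon GUA, had 1.45% and 1.604% at sphere and between 1.71% and 1.92% at cleavage (log2 -0.27, SE 0.12, adjusted p 0.354 by DESeq2). Tyr-GUA had 4.81% and 4.92% at sphere and between 5.27% and 6.11% at cleavage (log2 -0.24, SE 0.14). Gly-GCC had 2.39% and 2.59% at sphere and between 2.65% and 3.08% at cleavage (log2 -0.22, SE 0.13). These 3 had both sphere libraries below all cleavage libraries.

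Which leucine families passed depended on the libraries. Without 256-cell replicate 1, which had 10121680 counts, 3 families were called higher at sphere, namely Arg-UCU, Leu-AAG (log2 0.61, adjusted p 0.000667) and Leu-CAA (log2 0.64, adjusted p 0.0104, both by DESeq2). Without 256-cell replicate 2 both had a log2 difference of 0.30, and without sphere replicate 2 Leu-CAA had 0.22 and Leu-CAG 0.060, none called. By amino acid, all 5 leucine families had positive log2 differences, with a median of 0.31, beside a median of 0.22 for the 1000-cell against the 256-cell stage. Their sum was 4.39% and 5.49% at sphere, against 4.18% and 2.97% at the 256-cell stage and 4.42% and 3.93% at the 1000-cell stage, so the groups overlapped. Arginine families summed to 9.20% and 8.67% at sphere and to between 8.27% and 8.51% at cleavage. This sum includes Arg-UCU, the only arginine family called. Of the 5 families, 4 had a positive log2 difference, and Arg-ACG, the most abundant of them, had a negative one (-0.18, SE 0.13).

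The intervals, taken from the DESeq2 fit with 2 libraries a stage, describe how far family levels could differ. They are not adjusted for the 69 families and take the libraries as independent. For 58 of 69 families the 95% interval of the log2 difference lay within 1.5-fold either way, and for 68 it lay within 2-fold. The exception was SeC-UCA, the rare selenocysteine tRNA that reads UGA, with 0.00754% and 0.0134% of nuclear counts at sphere and between 0.00886% and 0.0117% at cleavage. Its interval ran from -1.03 to 0.98. The interval included 0 for 64 of the 69 families. For single entries the estimates were looser, with a median SE of 0.30 against 0.14 for families, and 404 of 621 entries had an interval within 2-fold.

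**Figure D4:**
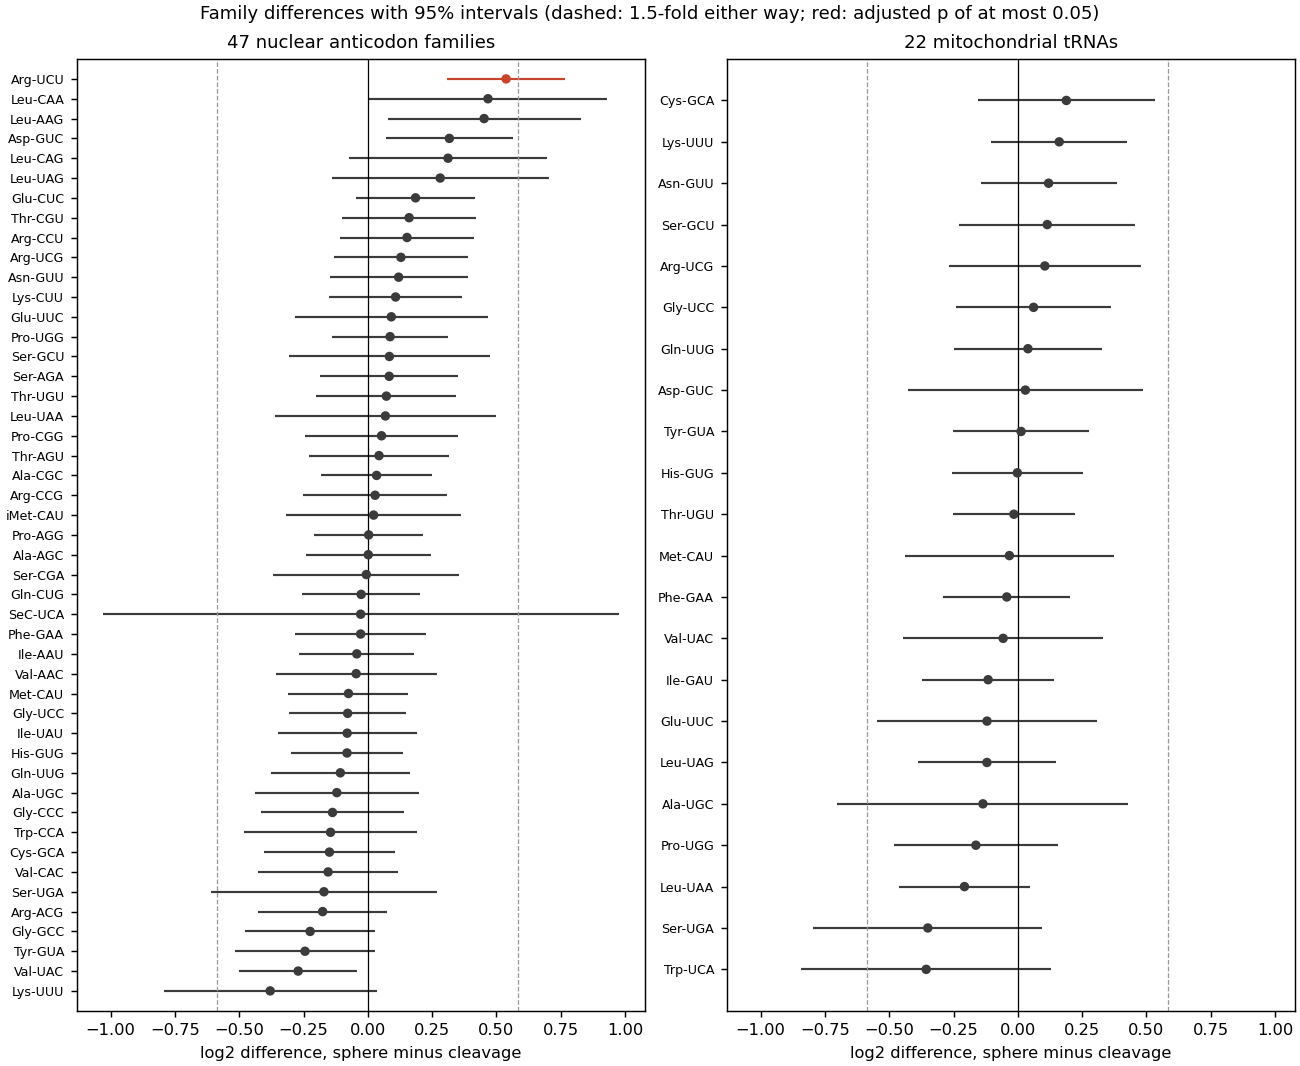
Log2 difference of each anticodon family between sphere and cleavage with its 95% interval, for 47 nuclear families (left) and 22 mitochondrial tRNAs (right), sorted by size, with dashed lines at 1.5-fold either way. Arg-UCU, in red, is the 1 family that passed the test, at 0.54, and the interval of 64 of the 69 families includes 0.

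Of the 8 most abundant nuclear families, Lys-UUU, with the lowest log2 difference of all 69 families, and Tyr-GUA, with both sphere libraries below all cleavage libraries, are described above. Glu-CUC also had separate groups, with 5.07% and 4.65% at sphere and between 4.03% and 4.40% at cleavage (log2 0.19, SE 0.12). Arg-ACG (log2 -0.18, SE 0.13), His-GUG (-0.08, SE 0.11), Gly-UCC (-0.08, SE 0.12) and Pro-AGG (0.00, SE 0.11) had overlapping groups. The initiator methionine tRNA, which starts every protein, had 3.52% and 3.16% at sphere, against 2.56% and 3.86% at the 256-cell stage and 3.67% and 2.94% at the 1000-cell stage. Its log2 difference was 0.02, with a 95% interval from -0.32 to 0.36.

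Grouped by the first base of the anticodon, which sets how a tRNA pairs at the wobble position, the shares moved little. Families that begin with C summed to 30.3% and 30.05% at sphere and to between 27.5% and 29.8% at cleavage. Families that begin with G summed to 23.9% and 23.8% at sphere and to between 24.2% and 24.6% at cleavage. Families that begin with A (inosine) or U overlapped between sphere and cleavage. No family of the C or G sets was called, and their median log2 differences were 0.03 and -0.05, beside 0.00 over all 47 nuclear families.

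Transcripts of high copy number were looked at apart from the rest. The 70 detected single transcripts with over 5 gene copies had a median log2 difference of 0.09, with 45 above 0 and 14 with both sphere libraries highest. Those with 2 to 5 copies (155) had a median of 0.03, with 82 above 0 and 23 with both sphere libraries highest. Those with 1 copy (321) had a median of 0.00, with 162 above 0 and 32 with both highest. Over all 546 the median was 0.025, with 289 above 0 and 69 (12.6%) with both highest. Lys-UUU-6 was the 1 call in the first set and Tyr-GUA-14 the 1 call in the last. The 70 transcripts summed to 36.8% and 35.1% of nuclear counts at sphere and to between 34.1% and 35.4% at cleavage, with overlapping groups.

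Within families, the split of counts among isodecoders was compared between the mean sphere and mean cleavage pools for the 42 families with at least 3 detected single transcripts. Shifts are given as percent of the counts of a family's detected single transcripts, with unresolved groups left out. The median shift was 2.85%, beside 1.63% between the means of the 1000-cell and 256-cell stages. The shift between sphere and cleavage was the larger of the pair in 32 families. Means over more libraries are less noisy than single libraries. The cleavage libraries most alike came from different stages, so their spread can cancel between the 2 stage means and makes 1.63% a low yardstick. Set against the largest difference between 2 single libraries of a stage, a stricter measure, the shift was larger in 3 families, namely Asp-GUC, Gly-GCC and Leu-CAG. In Gly-GCC 8.07% of these counts lay with other isodecoders at sphere than at cleavage, against at most 7.31% between the 2 libraries of a stage. In Asp-GUC the values were 2.93% and 2.24%, and in Leu-CAG 1.29% and 1.24%. In Lys-UUU, where 20.5% lay with other isodecoders, the 2 sphere libraries differed by 22.7% from each other. Lys-UUU-155 group, with most counts of that family, is not part of these shares.

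Transcripts that differed between bud and egg were looked at in the sphere and cleavage libraries. These lists came from a fit of the egg, shield and bud libraries alone, which shares no library with the comparison of sphere and cleavage. Of the 546 single transcripts, 77 were higher at bud than in egg (14.1%) and 51 were lower (9.34%). At sphere, the bud-higher transcripts had a median log2 difference from cleavage of 0.13, with 50 of 77 above 0, beside 0.025 and 289 of 546 for all single transcripts. Between the 1000-cell and 256-cell stages the same transcripts had a median of -0.20, which is larger in size, beside -0.01 for all. Leaving out 1000-cell replicate 1 brought the median at sphere to 0.051, and leaving out 256-cell replicate 1 brought it to 0.087. The bud-lower transcripts had a median of -0.03, with 22 of 51 above 0, and of 0.037 without sphere replicate 2 and 0.013 without 256-cell replicate 2. Of transcripts that were higher at shield than in egg (49, 8.97%) 30 were above 0, with a median of 0.16, and of those lower at shield (27, 4.95%) 12 were, with a median of -0.02. Among the 49, 1 was called higher at sphere than at cleavage and 1 lower, the same counts as over all 546. The lower one was Tyr-GUA-14 (log2 -1.09).

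Both sphere libraries lay above all 4 cleavage libraries in 16 of the 77 bud-higher transcripts (20.8%), beside 69 of all 546 (12.6%), and in 5 of the 51 bud-lower transcripts (9.8%). The 16 included Lys-UUU-6, Lys-UUU-9, Lys-UUU-52 and Pro-AGG-9, together with Glu-CUC-1 and Leu-AAG-85. Lys-UUU-6 was the 1 bud-higher transcript called at sphere, and no bud-lower transcript was called.

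The bud-higher transcripts together took 9.68% and 9.32% of nuclear counts at sphere, against 8.70% in both libraries of the 256-cell stage, and 8.24% and 7.94% at the 1000-cell stage. A part of this came from Glu-CUC-1, a glutamate isodecoder with 130 gene copies, which had 28575 and 23453 rpm at sphere and between 19490 and 22616 at cleavage (log2 0.33, SE 0.22, not called). Without it the sums were 6.82% and 6.98% at sphere and between 5.97% and 6.76% at cleavage. All detected single transcripts together also took a larger share at sphere, 72.6% and 72.0%, against between 69.5% and 71.9% at cleavage. The bud-lower transcripts took 2.23% and 2.26% at sphere and between 2.10% and 2.38% at cleavage, all below the 3.12% and 2.56% in egg, libraries that chose the list.

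**Figure D5:**
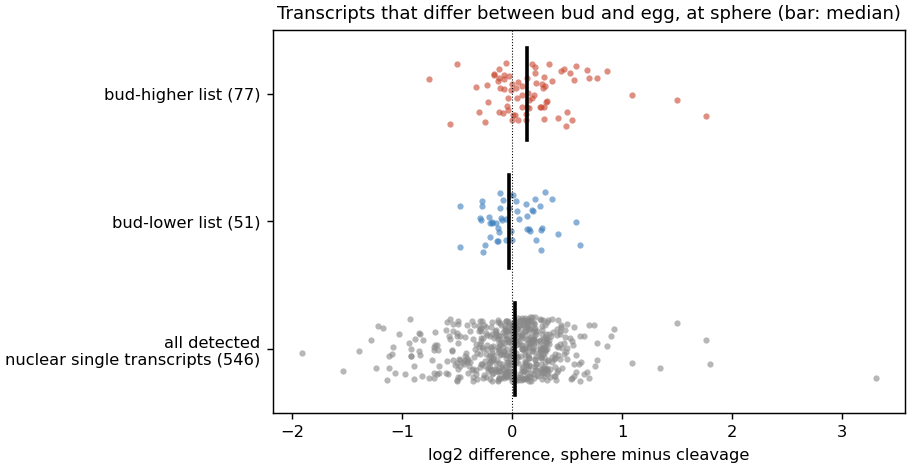
Log2 difference between sphere and cleavage of each single transcript (points) for the 77 transcripts higher at bud than in egg, the 51 lower at bud than in egg and all 546 detected, with a bar at the median; vertical position within a row has no meaning. The medians lie at 0.13, -0.03 and 0.025, and the 3 distributions overlap over most of their range.

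Mitochondrial tRNAs took 16.4% and 16.6% of all counts at sphere, against 15.8% and 18.3% at the 256-cell stage and 16.9% and 17.4% at the 1000-cell stage. The mean was 16.5% ± 0.144 at sphere and 17.1% ± 1.05 at cleavage (SD, n = 2 and 4 libraries), a difference of -0.561 percentage points. The exact permutation test gave a two-sided p of 0.533, and with 2 against 4 libraries it could not go below 0.133. The 2 sphere values lay inside the range of the cleavage values. With 256-cell replicate 2 left out the difference was -0.159 points, and with 256-cell replicate 1 left out it was -0.996 points.

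None of the 22 mitochondrial tRNAs was called. The lowest log2 differences were those of mt-Trp-UCA (-0.36, SE 0.25), mt-Ser-UGA (-0.35, SE 0.23) and mt-Leu-UAA (-0.21, SE 0.13). mt-Trp-UCA took 9.88% and 12.6% of mitochondrial counts at sphere, against 16.8% and 10.6% at the 256-cell stage and 10.0% and 17.1% at the 1000-cell stage. It was high in 256-cell replicate 1 and 1000-cell replicate 2, as Lys-UUU-155 group was among nuclear tRNAs, and so was mt-Ser-UGA with 6.65% and 6.44% there.

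The highest log2 differences were those of mt-Cys-GCA (0.19, SE 0.18), mt-Lys-UUU (0.16, SE 0.13) and mt-Asn-GUU (0.12, SE 0.13). The least abundant, mt-Ala-UGC, took 0.370% and 0.476% at sphere and between 0.309% and 0.513% at cleavage. The 8 tRNAs of the light strand took 17.6% and 20.7% of mitochondrial counts at sphere and between 17.7% and 21.2% at cleavage, so the balance of the 2 strands did not separate the groups.

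The contrasts with single stages had few calls. For sphere against the 256-cell stage 0 of 621 entries passed (0.0%), with 43 at an unadjusted p under 0.05 by DESeq2 and 0 calls and 36 by edgeR. For sphere against the 1000-cell stage 1 entry passed (0.161%), Lys-UUU-6 as above, with 24 at an unadjusted p under 0.05 (edgeR called 0, with 28), and 0 of 69 families (0.0%, with 2 at an unadjusted p under 0.05 and 1 by edgeR, which called 0). Between the 1000-cell and 256-cell stages 0 entries passed (0.0%, with 8 at an unadjusted p under 0.05 by DESeq2, and 11 by edgeR, which called 0). The same contrast gave 0 families (0.0%), and 1 was under an unadjusted p of 0.05 with either tool. The median size of the log2 difference over the 621 entries was 0.20 for sphere against cleavage and 0.11 for the 1000-cell against the 256-cell stage. The cleavage libraries most alike came from different stages, so their spread can cancel between the 2 stage means. That makes 0.11 a low yardstick.

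The likeness of cleavage libraries across the 2 stages bore on these counts. With 256-cell replicate 1 and 1000-cell replicate 2 left out, 34 entries and 3 families were called for sphere against cleavage, and with the opposite pair left out 24 entries and 11 families, the Lys-UUU family among them (log2 -0.64). Each choice keeps cleavage libraries that resemble each other, so the spread is small by construction. In the second of these fits 227 entries and 18 families had no adjusted p. Both fits use the same 2 sphere libraries. The log2 difference of Arg-UCU was 0.52 without the first pair and 0.57 without the second.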

How the data were processed

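The authors trimmed and demultiplexed reads with cutadapt 3.5 and ran mim-tRNAseq 1.2 at a cluster identity of 0.93 on the GtRNAdb GRCz11 set with mitochondrial tRNAs added. They deposited whole-number counts of uniquely mapped reads, not normalized, and gene copy numbers counted in that reference. Near-identical isodecoders can exchange reads, so single transcripts are less certain than families. All sample columns were mapped, with 0 left over. Charged fractions and the study's own comparisons were not used.

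Counts of the 6 libraries were fitted with DESeq2 1.42.0 under R 4.3.3, the tool the study's methods name, fitting stage alone, scaled by its default size factors, over all entries with a count. Entries and families were fitted separately. Families are sums over entries of 1 anticodon, groups included. An alternative used edgeR 4.0.16. The functions were tested on simulated data with independent libraries. The simulation lacked the likeness of cleavage libraries across stages, so it cannot give the error of the calls here. With 2 libraries a stage the spread was shared over stages, and p-values measure the spread between pools. Replicate pairs differed far beyond counting noise (chi-square per degree of freedom from 53.4 to 273), so none was a repeat deposit. Reads carry no molecular identifiers in the table.

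Named features were those called, those with the smallest p and separate groups, the most abundant, and transcripts that the study or earlier results had named. Members and lists were chosen with earlier results of these data known.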

Additional observations from a re-analysis of the deposited data

Results flagged for a closer look

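Among the 4 cleavage libraries, 3 of 54 named values held 1 library far from the others, measured by its gap to the nearest library as a share of the whole range. Chance alone gives about 1 in 20. mt-Cys-GCA was low in 256-cell replicate 1, at 2.05% of mitochondrial counts, with the next library at 2.47% and sphere at 2.76% and 3.03%. Leu-AAG-15 was low in 256-cell replicate 2, at 102 reads per 1000000 nuclear counts (rpm), with the next library at 149 and sphere at 209 and 200. Glu-CUC-3 was low in the same library, at 140, with the next at 180 and sphere at 215 and 212. In these 3 both sphere libraries lay above all cleavage libraries, the low one included.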

How the results depend on the processing

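Depth, 2 libraries a stage and the spread of the cleavage libraries limit these results, and no amount per embryo was measured. Entries called for sphere against cleavage, 3 as reported, were 0 with edgeR and 1 with single nuclear transcripts only. They were 5 when undetected entries were removed before the fit, which added Arg-UCU-10 group and Glu-CUC-21. With both cleavage stages fitted as 1 group they were 4, which added Lys-UUU-9. Without 1 library they were 0 to 3 (0 without sphere replicate 1). With 256-cell replicate 1 and 1000-cell replicate 2 left out, chosen after seeing the data, they were 34, and with the opposite pair left out 24. Families were 0 with single transcripts summed, 3 and 11 without those pairs, and 1 to 3 without 1 library. For sphere against the 256-cell stage, entries were 1 with all 12 libraries, 4 filtered before the fit and 0 to 1 without 1 library, and families 1 to 5 without 1 library (5 without 256-cell replicate 1). For sphere against the 1000-cell stage, entries were 3 with all 12 libraries, 0 with edgeR, 3 filtered before the fit and 0 to 2 without 1 library. The bud-higher median ran from 0.051 to 0.17 and the bud-lower median from -0.041 to 0.037 without 1 library, the mitochondrial difference from -0.996 to -0.159.

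Replicate numbers were not taken to pair the samples. Deviations of same-numbered libraries correlated at 0.24 (sphere and 256-cell), 0.42 (sphere and 1000-cell) and -0.45 (256-cell and 1000-cell) over 301 entries, and the sources do not say whether a number marks the same day. Crossed numbers at 1 cleavage stage cannot be told apart from unpaired pools. With the replicate block 2 entries and 1 family were called for sphere against cleavage, and Tyr-GUA-14 was lost (adjusted p 0.153 by DESeq2). The crossed block gave 0 entries and 0 families for the 1000-cell against the 256-cell stage.

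Of the values of named tRNAs under alternatives, 760 kept direction and side of the threshold, 17 lost the call, 17 gained it and 45 changed sign, all of tRNAs that were not called; beyond what is said here the cause was not tested. Apart from libraries left out, the log2 difference changed sign for the Lys-UUU family (0.45 with single transcripts summed), the Pro-AGG family (-0.000345 with TMM factors, -0.00033 with edgeR, -0.026 with nuclear families only), the initiator (-0.011 with nuclear families only), Ala-AGC-3 (-0.018 with edgeR) and Pro-AGG-83 (-0.043 with edgeR, -0.013 with undetected entries removed, -8.7e-05 with total nuclear counts). With 1 library or 1 of the 2 pairs left out, it ran from -0.048 to 0.067 for the Pro-AGG family, -0.15 to 0.0047 for the Gly-UCC family, -0.081 to 0.032 for the Gln-CUG family, -0.67 to 0.050 for mt-Trp-UCA, -0.33 to 0.10 for mt-Ala-UGC, -0.49 to 0.33 for SeC-UCA, -0.13 to 0.22 for the initiator, -0.093 to 0.16 for Ala-AGC-3, -0.10 to 0.025 for Gly-UCC-2, -0.037 to 0.045 for Pro-AGG-83, -0.20 to 0.48 for Thr-UGU-7, -0.038 to 0.21 for Thr-UGU-8, -0.28 to 0.74 for Arg-UCU-24, -0.13 to 0.92 for His-GUG-35 and -0.85 to 0.28 for Val-UAC-24.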

Other observations

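The rare lysine transcripts Lys-UUU-20 and Lys-UUU-150 were higher in the first replicate at sphere and at both cleavage stages. Other isodecoders of the family did not follow this at the 256-cell stage. There Lys-UUU-6, Lys-UUU-9 and Lys-UUU-52 were higher in the second replicate. Lys-UUU-20 was higher in the first replicate at sphere (388 against 4.33 rpm, which is reads per 1000000 nuclear counts), at the 256-cell stage (34.4 against 8.54) and at the 1000-cell stage (32.2 against 7.99). Lys-UUU-150 had 67.6 and 4.33 at sphere, 15.1 and 7.12 at the 256-cell stage, and 14.1 and 6.73 at the 1000-cell stage. Their positive log2 differences for sphere (3.30 and 1.79) had SE of 1.67 and 0.90. Both transcripts were picked after their values were seen.

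Some glutamine transcripts were high in the other pair of cleavage libraries, 256-cell replicate 2 and 1000-cell replicate 1. Gln-CUG-73 had 58.6 and 59.5 rpm at sphere, against 56.7 and 415 at the 256-cell stage and 358 and 77.0 at the 1000-cell stage. Gln-CUG-44 had 27.3 and 31.9 at sphere, against 29.2 and 158 and then 121 and 42.1. The same 2 libraries held the higher levels of Gln-CUG-13 group. What sets these libraries apart was not tested.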
